A study of Danio rerio with 32 samples.

Results

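The transcripts of the stress transcription factors atf4a, atf4b and creb1a were followed in the liver of male zebrafish that had been exposed to the organophosphate pesticide dichlorvos (DDVP) or kept without food. A probe was taken when the array's own annotation gave a RefSeq transcript of 1 of these genes for it, which held for 5 of the 43603 probes on the array. They were 1 probe for atf4a (A_15_P110418), 2 for atf4b (A_15_P101366 and A_15_P548712) and 2 for creb1a (A_15_P119761 and A_15_P200491). All 5 were among the 5481 probes of the deposited expression table. Probes of the same gene share a target transcript and are not replicates of one another, and the brighter probe of a gene is called here its bright probe and the other its dim probe.

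ATF4 is the transcription factor through which the integrated stress response acts on genes. In mammals, kinases that sense amino acid shortage, misfolded protein in the endoplasmic reticulum or haem deficiency phosphorylate the initiation factor eIF2, most translation falls, ATF4 mRNA is translated more, and ATF4 switches on genes for amino acid uptake, amino acid synthesis, transfer RNA charging and redox balance. Zebrafish carry a pair of ATF4 genes, atf4a and atf4b. CREB1 is the factor that binds cyclic AMP response elements, and it is switched on by phosphorylation through protein kinase A or calmodulin-dependent kinases, which in mammalian liver raises gluconeogenic genes during fasting. The arrays measured the mRNA of these factors, not their translation or phosphorylation.

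The fish were adult males of the Tübingen strain, 6 to 9 months old by the labels, and each array held RNA pooled from 4 or 5 livers. In the DDVP arm, 8 unexposed control pools in 2 sets of 4 were set against 4 pools each at low, mid and high DDVP (6, 19 and 32 mg/L by the labels, with lower measured concentrations at mid and high by the methods) after 24 h. In the nutrient restriction arm, without toxicant, 4 fed pools (fed 4 h before harvest) were set against 4 pools unfed for the time labelled 24 h, which the methods give as 29 h, and 4 pools unfed for 50 h. The sources used here do not say whether pools of a group came from separate aquaria, so p-values measure the spread between pools only.

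Replicate arrays of a group had squared correlations of 0.954 to 0.976 over the deposited table, and array medians in the DDVP arm lay between 9.52 and 9.72 on the log2 scale. Hepatocyte transcripts such as fgb, fgg, f2 and apobb.1 were measured in both arms. In fed pools the summed signal of the exocrine pancreas probes was 459000 to 1100000, beside 1670000 to 1840000 for the hepatocyte probes. The deposited table held no exocrine pancreas, erythrocyte or leukocyte probe, so other tissue in the DDVP pools could not be judged from these markers. The table's 5481 probes had been chosen by the authors for a change on these same arrays, so a high share of them passed the test. A probe was called when its adjusted p did not exceed 0.001 and its change reached 1.8-fold (0.848 on the log2 scale), which 30.7%, 62.6% and 74.6% of probes did at low, mid and high DDVP. The means of both control sets were equal to within 1e-04 in every probe, after the authors' removal of a batch effect, so that the pooled set of 8 is worth no more than 4 pools as a baseline and the standard errors below are too small.

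atf4a rose with DDVP at every concentration. Its normalised level (log2) over the 8 control pools was 11.48 at the lowest, 11.58 at the median and 11.99 at the highest. The 4 low pools had 12.76, 12.63, 12.40 and 12.66, the 4 mid pools 13.43, 12.89, 12.96 and 12.80, and the 4 high pools 13.88, 13.66, 14.26 and 13.45. All exposed pools lay above all control pools, and neither the low and mid pools (31.5% of all probes were separated upwards in this way) nor the mid and high pools overlapped. The group means were 11.64 ± 0.18 (SD, n = 8) in controls, 12.61 ± 0.15 at low, 13.02 ± 0.28 at mid and 13.81 ± 0.35 at high DDVP (SD, n = 4 each). Against controls the fitted log2 fold change was 0.97 ± 0.15 (SE) at low, 1.38 ± 0.15 at mid and 2.17 ± 0.15 at high DDVP, which is 1.96-fold, 2.60-fold and 4.50-fold. The adjusted p-values (limma, Benjamini-Hochberg over all 5481 probes) were 5.76e-06, 1.5e-08 and 6.75e-12, so that atf4a passed both thresholds at all 3 concentrations.

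atf4b rose at high DDVP on both probes. On its bright probe the control pools had 12.85 at the lowest, 13.38 at the median and 13.48 at the highest, the low pools 14.01, 13.95, 13.72 and 14.0007, the mid pools 14.61, 14.07, 13.78 and 13.95, and the high pools 14.61, 14.99, 15.03 and 14.70. The exposed pools lay above every control pool at all 3 concentrations. The mid pools overlapped the low pools, and the highest mid pool equalled the lowest high pool. The log2 fold change was 0.61 ± 0.14 (SE) at low (adjusted p = 0.0008), 0.79 ± 0.14 at mid (adjusted p = 2.62e-05) and 1.52 ± 0.14 at high DDVP (adjusted p = 1.86e-09). The first 2 values passed the p threshold but stood below 1.8-fold, and without mid replicate 3 the mid value passed both (0.90). Over the alternative settings the adjusted p (limma) rose as far as 0.00853 at low and 0.000677 at mid DDVP, so the low value did not always pass. Only the change at high DDVP, 2.87-fold, was called with all pools included.

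The dim atf4b probe gave smaller changes of the same direction. Its control pools ran from 10.96 through a median of 11.16 to 11.62. The low pools had 11.44, 11.65, 11.55 and 11.75, the mid pools 12.25, 11.72, 11.55 and 11.32, and the high pools 12.04, 12.46, 12.80 and 12.44. Here only the high pools lay above every control pool. The log2 fold change was 0.39 ± 0.16 at low (adjusted p = 0.0306), 0.51 ± 0.16 at mid (adjusted p = 0.00449) and 1.23 ± 0.16 at high DDVP (SE; adjusted p = 1.87e-07), the last being 2.35-fold and called.

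creb1a rose at high DDVP and gave the smallest fitted changes of the 3 genes there. Its probes were the dimmest, with control means of 7.24 and 6.46 (log2), against 11.64 for atf4a and 13.32 and 11.20 for atf4b. On the nutrient restriction arrays the raw signal of its bright probe was 155 to 243 over a local background of 37 to 62. The paper describes no subtraction of background. For creb1a, the part of the low signal in the size of the changes was not tested. On its bright probe the control pools had 6.97 at the lowest, 7.25 at the median and 7.49 at the highest. The low pools had 7.38, 7.45, 7.47 and 7.75, the mid pools 7.88, 7.63, 7.69 and 7.71, and the high pools 8.02, 8.14, 8.56 and 8.10. The mid and high pools stood above all control pools, and the low pools overlapped them. The log2 fold change was 0.27 ± 0.12 (SE) at low (adjusted p = 0.0447), 0.49 ± 0.12 at mid (adjusted p = 0.000577, below 1.8-fold) and 0.96 ± 0.12 at high DDVP (adjusted p = 1.1e-07, 1.95-fold, called). Without high replicate 3 the value at high DDVP was 0.85, just short of 1.8-fold.

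The dim creb1a probe gave nearly the same values. Its control pools ran from 6.14 through a median of 6.48 to 6.69, and the low pools had 7.13, 6.64, 6.84 and 6.63. The mid pools had 6.95, 6.94, 6.93 and 6.95, and the high pools 7.15, 7.16, 7.67 and 7.29. Again the mid and high pools stood above all control pools and the low pools overlapped them. Its log2 fold change was 0.34 ± 0.12 at low (adjusted p = 0.0154), 0.48 ± 0.12 at mid (adjusted p = 0.000844) and 0.86 ± 0.12 at high DDVP (SE; adjusted p = 8.27e-07). The high value, 1.81-fold, stood at the fold threshold and fell below it without control set 1 replicate 1 (0.84), control set 2 replicate 1 (0.81) or high replicate 3 (0.74).

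**Figure D1:**
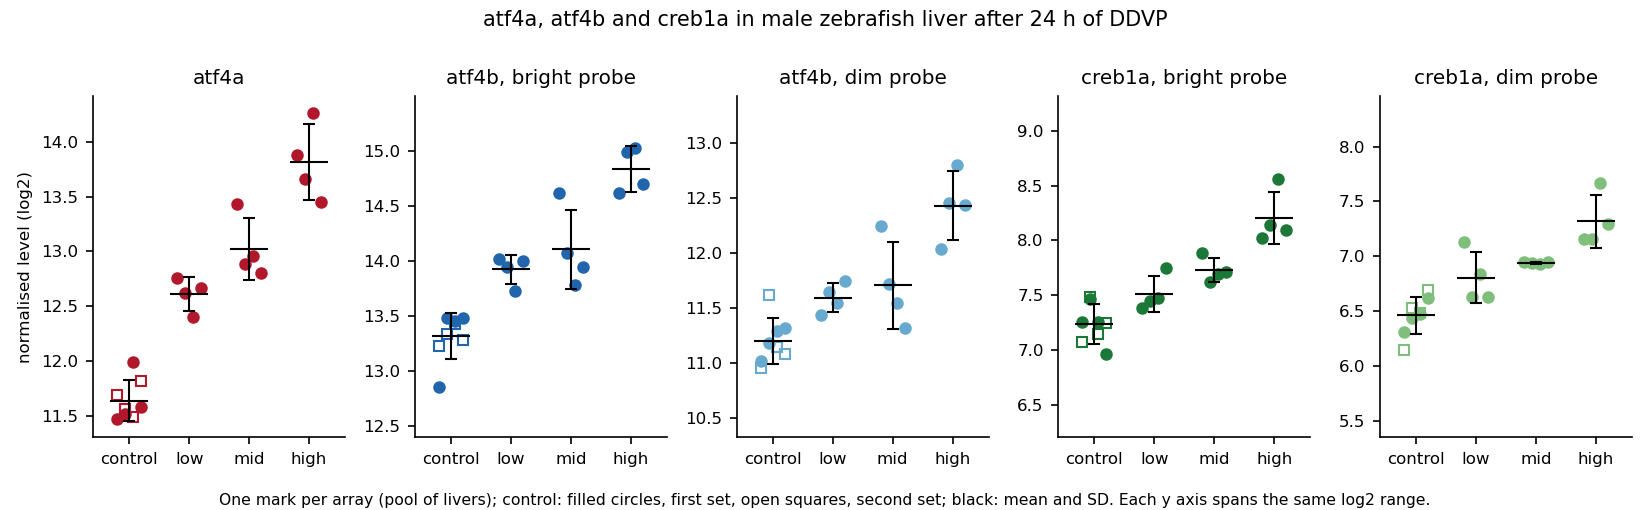
Normalised level (log2) of the 5 probes of atf4a, atf4b and creb1a on each array of the DDVP arm, by concentration, with filled circles for each pool, open squares for the second control set, and black bars for the mean and SD of each group (n = 8 controls, 4 in each exposed group). The exposed pools of atf4a lay above all control pools at each concentration, while those of creb1a lay wholly above the controls only at mid and high DDVP.

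Counted over probes, 1 of the 5 was called higher at low DDVP, where 13.4% of all probes were called in that direction. At mid DDVP it was again 1 of 5, beside 31.9% of all probes, and at high DDVP 5 of 5, beside 39.4%. Exposed pools lay wholly above the controls for 2 of 5 probes at low DDVP (25.3% of all probes), for 4 of 5 at mid (47.5%) and for 5 of 5 at high (49.5%). Placed among the changes of all probes of the table, atf4a stood above 88.4% of them at low, 86.5% at mid and 93.0% at high DDVP. The bright creb1a probe stood above 61.4%, 51.4% and 65.4%, with its change at mid DDVP (0.49) close to the median of all probes there (0.45). At low and high DDVP the median over all probes was 0.05 and 0.51.

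At mid and high DDVP the same pool gave the top value of all 3 genes. High replicate 3 had the highest level of its group on 5 of the 5 probes, and so did mid replicate 1. The medians of these arrays, 9.65 for high replicate 3 and 9.69 for mid replicate 1, lay inside the range of the arm. The part of these pools in the group means was measured by leaving each out in turn, and the values it moved across a threshold are given beside each result. Control set 1 replicate 1, control set 2 replicate 1 and high replicate 1 were each the lowest of their set or group on 4 of the 5 probes. How often each array was highest or lowest over all probes of the table was not counted.

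The neighbouring concentrations were then compared with each other. At mid against low DDVP the 5 probes differed by 0.41 (atf4a), 0.18 and 0.12 (atf4b, bright and dim probe) and 0.22 and 0.14 (creb1a, bright and dim probe) on the log2 scale. None was called, with adjusted p-values from 0.0385 for atf4a to 0.593 for the dim atf4b probe, whereas 25.8% of all probes were called at this step (12.6% upwards). Without mid replicate 1 the bright atf4b probe was at 0.012 and the dim one at -0.0651. At high against mid DDVP the differences were 0.79 (95% interval 0.45 to 1.14) for atf4a, 0.73 (0.39 to 1.08) and 0.72 (0.35 to 1.1) for atf4b, and 0.48 (0.19 to 0.76) and 0.38 (0.08 to 0.67) for creb1a. None of the 5 was called here either (adjusted p = 0.00329, 0.00543, 0.00987, 0.0219 and 0.069 in that order), at a step where 1.37% of all probes were (0.42% upwards). The bright atf4b probe was called at this step without mid replicate 1 (0.90, adjusted p = 0.00078).

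Set beside the other probes, the step between mid and high DDVP was where these genes stood furthest out. While the median over all probes was 0.01 at that step, atf4a stood above 97.9% of probes, atf4b above 97.1% and 97.0%, and creb1a above 90.3% and 85.3%. At mid against low DDVP, where the median was 0.10, the same 5 probes stood above only 50.7% to 65.3% of the others. The high pools lay wholly above the mid pools for atf4a and both creb1a probes (9.14% of all probes). On the bright atf4b probe the lowest high pool equalled the highest mid pool (14.61), and on the dim atf4b probe the groups overlapped. Which control set was run with which concentration is not given in the sources used here, so whether such a step rests on the levelling of the control sets as well could not be settled.

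**Figure D2:**
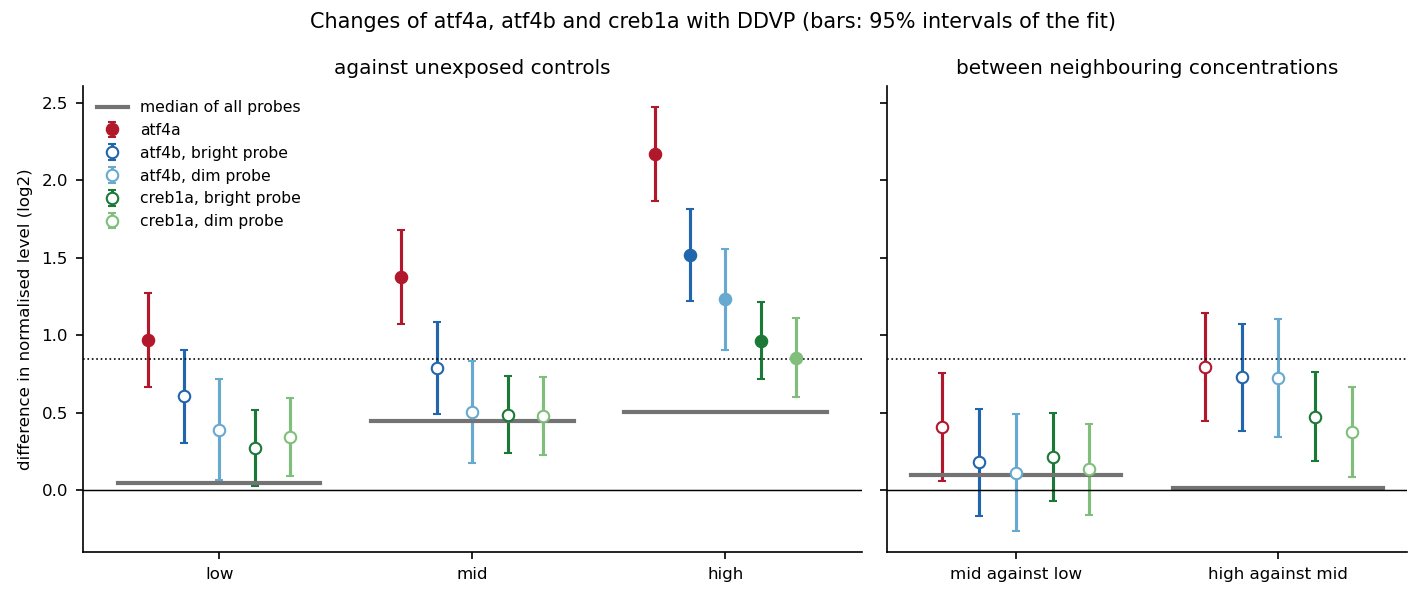
Log2 differences of the 5 probes against unexposed controls and between neighbouring concentrations, with 95% intervals of the fit, filled where called, beside the median of all 5481 probes (grey) and the 1.8-fold line (dotted). At high against mid DDVP all 5 probes lay at 0.38 to 0.79, above the median of all probes of 0.01.

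The ATF4 copies were compared by their changes on the same arrays, since probes of different genes cannot be compared in level. atf4a minus atf4b (bright probe) moved up by 0.36 on the log2 scale at low, 0.59 at mid and 0.65 at high DDVP relative to controls. Each difference had an exact two-sided permutation p of 0.00404, the smallest that 4 against 8 arrays allow (adjusted p = 0.00673 over 5 comparisons). Since the 8 controls are worth no more than 4, each control set was also used alone. Because both sets have equal means, the differences could not change by this, and only the p could. The exact p was then 0.0286, the smallest that 4 against 4 arrays allow (adjusted p = 0.0476). On single arrays the difference, less its mean in controls, was 0.42, 0.35, 0.35 and 0.34 at low, 0.49, 0.48, 0.85 and 0.53 at mid and 0.94, 0.34, 0.91 and 0.42 at high DDVP, and at most 0.29 in a control pool. In 12 of 12 exposed pools it thus lay above every control pool. The bright atf4b probe had the highest signal of the 5 probes at high DDVP (mean 14.83). The authors replaced off-scale readings by those of a weaker scan, and whether this probe was among them is not known. The same difference was therefore taken against the dim atf4b probe. It was 0.58, 0.87 and 0.94 at low, mid and high DDVP, larger than with the bright probe and with the same exact p. These p-values measure the spread between pools, not how strongly each probe responds. atf4a had only 1 probe, and the 2 probes of the same atf4b transcript themselves changed by unlike amounts. Their log2 fold changes were 0.61 and 0.39 at low and 1.52 and 1.23 at high DDVP. The part of the probes in the difference between the copies was not tested.

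**Figure D3:**
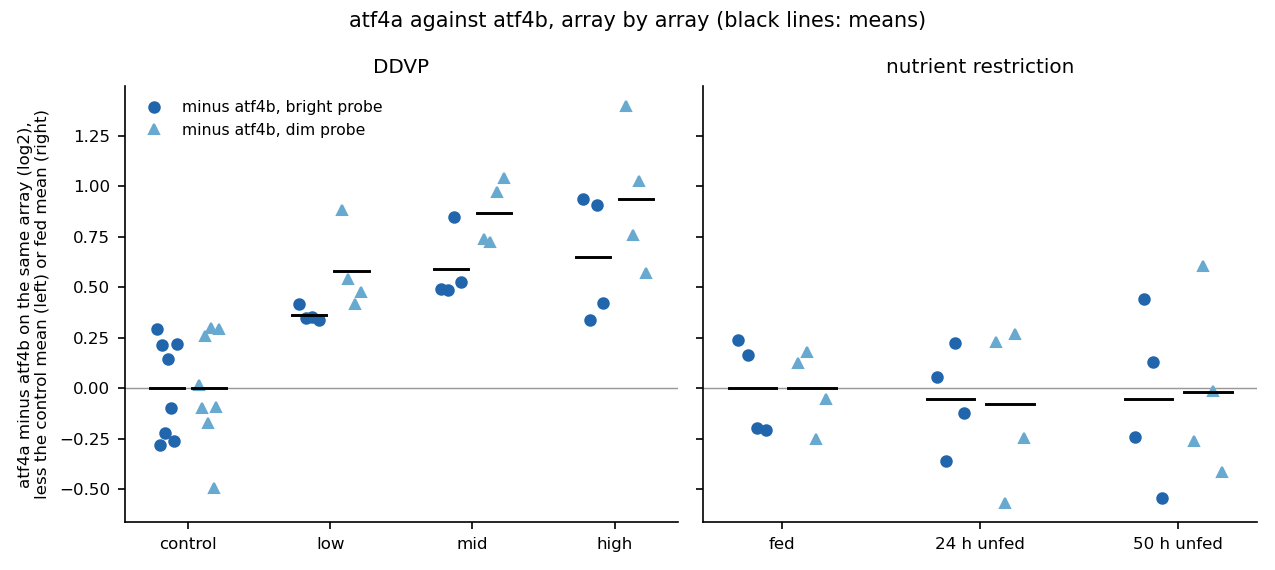
Difference between atf4a and atf4b on each array (log2), less its mean in controls (DDVP) or in fed fish (nutrient restriction), with circles for the bright atf4b probe, triangles for the dim one and black lines for group means. The exposed pools lay above 0 at every concentration, while the unfed pools scattered about 0.

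Over the 20 arrays of the DDVP arm the 5 probes followed each other, with Pearson's r from 0.84 to 0.95 in the 10 pairs. These points share arrays, normalisation and the concentration groups, and the values are a description only. The genes whose pattern was most like that of atf4a were gclc (r = 0.972), zgc:77375 (0.966), rab18b (0.964), daxx (0.964) and btbd9 (0.962). gclc, the catalytic subunit of the enzyme that starts glutathione synthesis, stood 1.44, 3.02 and 4.55 above controls on the log2 scale at low, mid and high DDVP. For the bright atf4b probe they were eif1axb (0.960), a translation initiation factor, then oser1 (0.956), rab18b (0.955), daxx (0.950) and atf4a itself (0.950). For creb1a they were mapre1b (0.929), mindy1 (0.918), the dim atf4b probe (0.918), eif4g2a (0.918), a translation initiation factor of the eIF4G family, and mrm3a (0.917).

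Upstream of ATF4, 5 of the 11 eIF2 kinase, eIF2 and eIF2B genes on the array were in the table, each with 1 probe. At high DDVP 3 of the 5 were called higher and 1 lower, beside 39.4% and 35.1% of all probes. The exchange factor subunits eif2b4 and eif2b1 rose by 1.26 and 1.15 on the log2 scale, and eif2s2, the beta subunit of eIF2, by 1.1 (adjusted p = 3.72e-08, 8.48e-07 and 4.71e-09). eif2s1b, one copy of the alpha subunit that carries the regulatory phosphorylation site, fell by 0.90 (adjusted p = 1.52e-07). At low DDVP none of the 5 was called, and at mid DDVP only eif2b4 was (0.88). The count at mid DDVP was 0 without control set 1 replicate 3 or mid replicate 2, 2 without mid replicate 3 or mid replicate 4, and 5 without the fold filter.

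Downstream, among the genes known in mammals as ATF4 targets in the stress response, those in the table were mostly higher. Of 16 such genes on the array 10 were in the table with 16 probes, of which 11, 12 and 11 were called higher at low, mid and high DDVP and none lower, beside 13.4%, 31.9% and 39.4% of all probes called higher. Their median log2 fold change was 1.14, 1.83 and 1.96, beside medians of 0.05, 0.45 and 0.51 over all probes. trib3, a pseudokinase that in mammals restrains ATF4, rose by 2.47, 3.46 and 3.75 at low, mid and high DDVP (adjusted p = 2.93e-07, 5.04e-10 and 8.69e-11). The growth arrest gene gadd45aa rose by 1.04, 2.30 and 2.92 and the transcription factor cebpb by 0.86, 1.68 and 2.27, with fitted values in the order of concentration. The stress factor atf3 rose by nearly the same amount at each concentration (2.42, 2.41 and 2.49), with a wide spread among its control pools (SD 1.17, n = 8).

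Not every gene of that list followed atf4a. At mid against low DDVP 2 of the 16 probes were called higher and 3 lower, and the 3 lower ones, named here after their values were seen, were all probes of igfbp1a, the binding protein of insulin-like growth factors. Their log2 difference at mid against low DDVP was -1.70, -1.53 and -1.44, where 13.2% of all probes were called downwards. Against controls these 3 probes were still above 0 at mid DDVP, as were all 16 of the list. ppp1r15a, which in mammals brings the phosphatase to eIF2 and was likewise picked after its values were seen, was 1.93 above controls at low and 0.80 at high DDVP, the second value not called.

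The ATF4 targets for amino acid supply gave a similar count with exceptions. Of 20 genes on the array 14 were in the table with 20 probes, and 12, 11 and 13 of these were called higher at low, mid and high DDVP, with 0, 3 and 3 called lower, beside the shares of all probes of 13.4%, 31.9% and 39.4% higher and 17.3%, 30.7% and 35.1% lower. The median log2 fold change was 1.09, 1.37 and 1.34. slc3a2b, the heavy chain of several amino acid exchangers, rose by 1.39, 3.22 and 4.16 (adjusted p = 6.67e-07, 4.57e-13 and 4.72e-15). The cationic amino acid transporter slc7a3a was higher by 3.77 at low, 2.93 at mid and 3.30 at high DDVP. cth and cthl, enzymes of cysteine formation from cystathionine, were higher by 2.55 and 2.49 at high DDVP. The 3 probes called lower, named after their values were seen, belonged to asns, the asparagine synthetase (-1.23 at high DDVP), aars1 (-0.86) and pck2 (-1.56). The second asns probe did not pass (-0.20, adjusted p = 0.18).

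Genes of the endoplasmic reticulum unfolded protein response, a branch that shares the eIF2 kinase step, included members called in either direction. Of 28 on the array 11 were in the table with 16 probes, of which 2, 8 and 8 were called higher and 2, 2 and 3 lower at low, mid and high DDVP. Over all probes 13.4%, 31.9% and 39.4% were called higher and 17.3%, 30.7% and 35.1% lower. The share called in this list, with higher and lower calls counted jointly, was close to that of the table. By direction, the calls at mid and high DDVP leaned upwards. At each concentration 13 of the 16 probes lay above 0. The median log2 fold change was 0.55, 0.82 and 0.83, beside 0.05, 0.45 and 0.51 over all probes. At high DDVP the calcium-binding chaperone calr fell by 3.62 and its relative calr3a fell by 1.90 (adjusted p = 1.13e-11 and 7.66e-09). dnajb9b, a co-chaperone of that compartment, rose by 2.51 and selenos by 1.58 (adjusted p = 6.9e-12 and 1.59e-11).

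Among relatives of CREB1 the table held 2 of 9 genes on the array, and both fell. Their 2 probes were called lower at low, mid and high DDVP, beside 17.3%, 30.7% and 35.1% of all probes. Since the table holds only probes chosen for a change, these 2 genes do not stand for the family. atf7a averaged 14.89 ± 0.11 in controls (SD, n = 8) and 12.52 ± 0.91, 9.82 ± 0.46 and 9.63 ± 0.44 at low, mid and high DDVP (SD, n = 4 each). creb3l3a, a liver factor held in the endoplasmic reticulum membrane, averaged 12.30 ± 0.18 in controls and 10.04 ± 0.36, 7.57 ± 0.39 and 7.26 ± 0.50 at low, mid and high DDVP. Their log2 fold changes at high DDVP were -5.25 and -5.05 (adjusted p = 9.07e-14 and 1.26e-15). Most of that change was reached by mid DDVP, where they were -5.07 and -4.73.

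Of 16 protein kinase A, calmodulin-dependent and salt-inducible kinase genes on the array, 3 were in the table with 6 probes. The list mixes regulatory and catalytic subunits, so its counts give no direction of kinase activity. At high DDVP 5 of the 6 probes were called higher and 1 lower, beside 39.4% and 35.1% of all probes. prkar1aa, a regulatory subunit of protein kinase A, rose by 1.88 on its most changed probe (adjusted p = 2.22e-10), and camk1ga, a calmodulin-dependent kinase, by 2.25 (adjusted p = 4.53e-06). prkacbb, a catalytic subunit of protein kinase A, fell by 1.43 (adjusted p = 2.02e-06).

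Among genes known as CREB targets in mammalian liver, those in the table were mostly higher. Of 14 on the array 6 were in the table with 10 probes, and 6, 8 and 8 of these were called higher at low, mid and high DDVP, none lower, beside 13.4%, 31.9% and 39.4% of all probes called higher. Their median log2 fold change was 1.59, 1.67 and 2.10, beside 0.05, 0.45 and 0.51 over all probes. The table holds only probes chosen for a change, and the paper reports g6pca, a gluconeogenic gene, as lower at high DDVP. None of the 10 probes was below 0 at high DDVP, so that reading was not among them. lpin1a, a phosphatidate phosphatase, rose by 2.57, 3.34 and 3.96, and the insulin receptor substrates irs2a and irs2b by 2.69 and 2.16 at high DDVP. tat, the tyrosine aminotransferase, was 3.05 above controls at low, 2.57 at mid and 2.25 at high DDVP on the probe with the larger change, whose steps were not called. Its second probe, added after its values were seen, gave 2.06, 1.11 and 1.17, and its step at mid against low DDVP was called (-0.95, adjusted p = 1.86e-05). At high against mid DDVP none of the probes of these 7 lists was called, beside 0.42% of all probes upwards and 0.949% downwards.

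**Figure D4:**
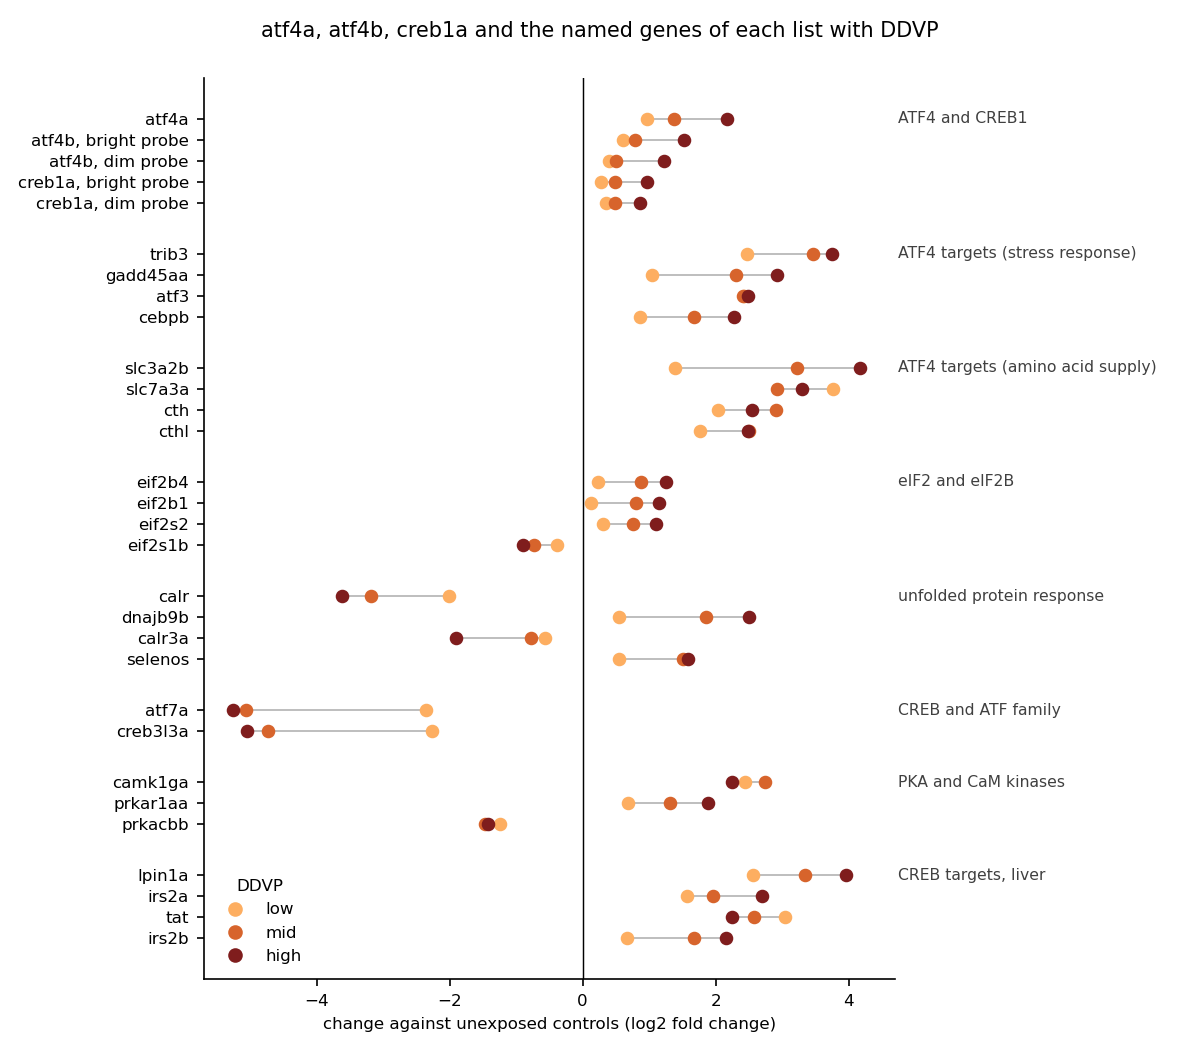
Log2 fold changes against unexposed controls at low, mid and high DDVP of the 5 probes of atf4a, atf4b and creb1a and of up to 4 named genes from each list. The ATF4 targets and liver CREB targets shown lay to the right of 0, atf7a and creb3l3a far to the left, with values down to -5.25.

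The hepatocyte markers held in the table moved with concentration as well. Of 8 such genes on the array 5 were in the table, with 6 probes, and the table holds only probes chosen for a change. The summed signal of these 6 probes was 149000 to 164000 in control pools and 129000 to 155000 at low DDVP. It was 91300 to 113000 at mid and 74300 to 81400 at high DDVP. At high DDVP 5 of the 6 probes were called lower, beside 35.1% of all probes. The table held no probe of the exocrine pancreas, erythrocyte, leukocyte or vitellogenin lists, and 2 of the 8 genes on the array that mark endothelium, stellate or bile duct cells, col1a2 and sox9b, whose summed signal was 377 to 441 at high DDVP and 1060 to 5250 in controls. The part of the cell makeup in the changes of atf4a, atf4b and creb1a was not tested. In pooled tissue, fewer cells of a type and less RNA per cell cannot be told apart.

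Nutrient restriction addresses whether these genes also move when fish do not eat. atf4a had 11.64, 11.50, 11.45 and 11.86 (log2) in fed pools, 12.21, 11.71, 12.20 and 11.80 in pools unfed for 24 h, and 12.21, 12.12, 12.21 and 12.06 in pools unfed for 50 h. The 50 h pools lay above all fed pools, as 6.29% of all 16082 probes tested did, and the 24 h pools overlapped them. The log2 fold change was 0.37 (95% interval 0.07 to 0.67, adjusted p = 0.135) at 24 h and 0.54 (0.24 to 0.84, adjusted p = 0.0433) at 50 h. Neither passed the threshold of 0.001, which 0.00622% of probes passed at 24 h and 0.0187% at 50 h.

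The averages of atf4b were also higher in unfed than in fed fish, without passing the test. Its bright probe had 13.59, 13.52, 13.84 and 14.25 in fed pools, 14.35, 14.26, 14.16 and 14.11 at 24 h, and 14.64, 13.87, 14.27 and 14.79 at 50 h. The log2 fold change was 0.42 (-0.03 to 0.87, adjusted p = 0.244) at 24 h and 0.59 (0.14 to 1.04, adjusted p = 0.107) at 50 h. The groups overlapped at both times. The dim probe gave 0.45 (adjusted p = 0.218) and 0.56 (adjusted p = 0.127), with the 24 h pools, 11.34 to 11.69, above the fed pools, 10.73 to 11.33 (5.12% of all probes).

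For creb1a no difference between unfed and fed fish was called, and the changes of its bright probe were small. Its bright probe had 7.60, 7.48, 7.65 and 7.65 in fed pools, 7.29, 7.70, 7.61 and 7.91 at 24 h, and 7.78, 7.61, 7.53 and 7.96 at 50 h. The log2 fold change was 0.04 (-0.27 to 0.34, adjusted p = 0.906) at 24 h, turning negative without unfed 24 h replicate 4 (-0.0567) or fed replicate 2 (-0.0006), and 0.13 (-0.18 to 0.43, adjusted p = 0.611) at 50 h. The dim probe, whose raw signal was 65 to 112 over a local background of 38 to 62, did not reach the signal-to-noise limit of 3 on all arrays of any group, so that 4 of the 5 probes entered the main test of this arm. Tested without that filter, it gave 0.04 and -0.24 (adjusted p = 0.924 and 0.293). creb1b, the other CREB1 copy, was measured only in this arm and gave 0.39 and 0.26 (adjusted p = 0.402 and 0.573).

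**Figure D5:**
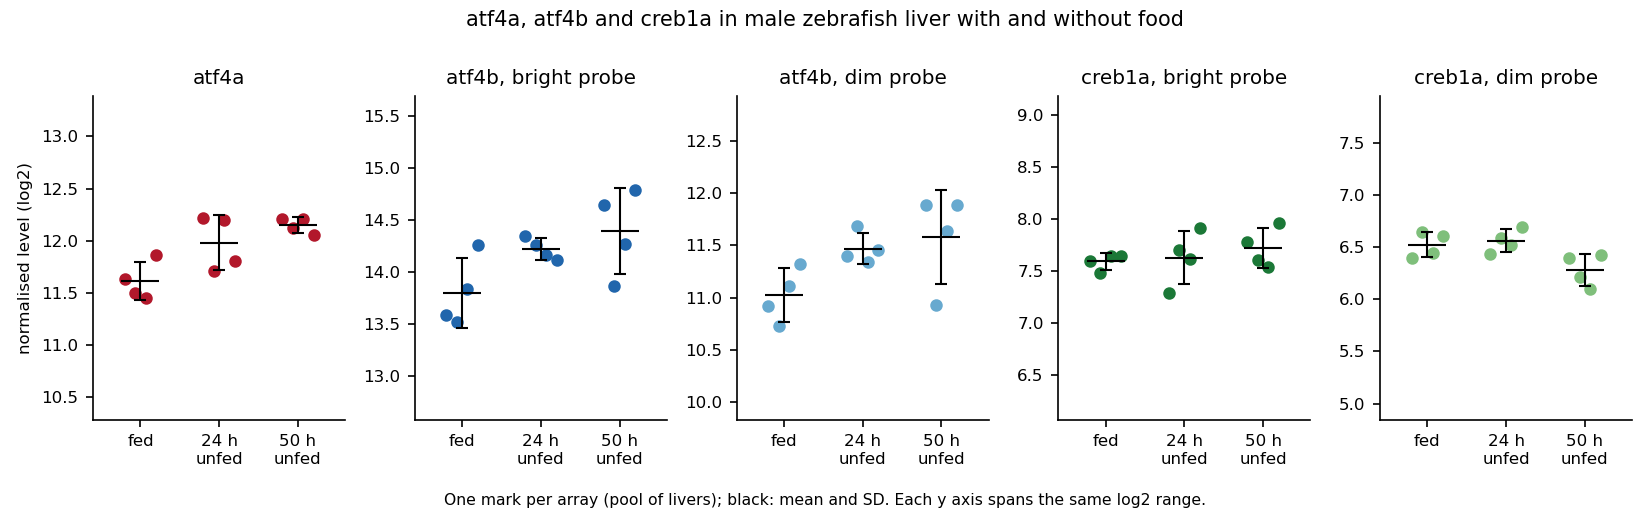
Normalised level (log2) of the 5 probes on each array (circles) of the nutrient restriction arm in fed fish and after 24 h and 50 h without food, with black bars for the mean and SD of each group (n = 4 each). The atf4a pools unfed for 50 h, 12.06 to 12.21, lay above the fed pools, while the creb1a groups overlapped on the bright probe.

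The arrays of this arm lay on 3 slides, each with all 3 groups. The third principal component, 10.1% of the variance, separated the slides (r squared 0.79). Within slides, with 1 or 2 arrays a group, atf4a differed between 50 h unfed and fed pools by 0.57, 0.65 and 0.27, and the bright atf4b probe by 1.06, 0.19 and 0.27. At 24 h the within-slide values of atf4a were 0.32, 0.73 and -0.06, those of the bright atf4b probe 0.72, 0.49 and -0.14. The direction of these 24 h values thus did not hold on the third slide. Between 50 h and 24 h without food no probe of the 3 genes passed the test, and none of all 16082 probes (0.0%) did in limma, while 1009 had an unadjusted p below 0.05.

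Between the ATF4 copies no difference in change was detectable in this arm. atf4a minus atf4b (bright probe) changed by -0.05 at 24 h and -0.05 at 50 h against fed pools (exact two-sided permutation p = 0.714 and 0.743, where 4 against 4 arrays allow 0.0286 at the smallest). Leaving out single pools moved these values between -0.14 and 0.0517 at 24 h and between -0.22 and 0.11 at 50 h.

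With all pools and the main processing, no probe of the 7 lists was called in unfed fish. Over all probes the share called was only 0.00622% at 24 h and 0.0187% at 50 h. In the ATF4 stress list 1 probe was called higher at 50 h on the deposited values, and 1 without unfed 50 h replicate 2. The closest of the named genes was atf3, which averaged 11.13 ± 0.47 at 24 h and 11.23 ± 0.58 at 50 h, against 8.32 ± 0.37 in fed pools (SD, n = 4 each), with log2 fold changes of 2.81 and 2.90 (adjusted p = 0.00203 and 0.00174). trib3 gave 0.78 and 0.65 (adjusted p = 0.0327 and 0.0593), and cth gave -0.77 and -0.59 (adjusted p = 0.0884 and 0.176). Over the ATF4 stress list the median was 0.46 at 24 h and 0.25 at 50 h, beside -0.03 and -0.06 over all probes. Over the amino acid list it was -0.06 and -0.14. The liver CREB targets had the highest median of the 7 lists, 0.69 and 0.36. The unfolded protein response list had the lowest, -0.40 and -0.24. For the eIF2 list the median was -0.08 and -0.09, for the relatives of CREB1 0.25 and 0.125, and for the kinases 0.29 and 0.06.

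Transcripts of other cell types varied between the pools. The summed signal of 16 exocrine pancreas probes was 146000 to 461000 at 24 h and 146000 to 1100000 at 50 h, against 459000 to 1100000 in fed pools, and 16 of 16 probes averaged lower in unfed fish at both times. The 7 leukocyte probes summed to 19800 to 48000 at 24 h and 26000 to 49100 at 50 h, against 11900 to 26400 in fed pools, and 7 of 7 averaged higher. None of these probes was called, and their part in the values of the 3 genes was not tested. The hepatocyte sum was 1700000 to 1890000 at 24 h and 1750000 to 1950000 at 50 h, against 1670000 to 1840000 in fed pools. The 1 vitellogenin probe measured in these male pools, for vtg5, had a signal of 807 to 1820 at 24 h and 558 to 2760 at 50 h. In fed pools it had 1640 to 4250, and it was not called at either time.

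To ask whether high DDVP and 50 h without food differed in size of effect, both effects were set against each other on the deposited values. Their baselines were unlike. Fed pools had food 4 h before harvest, while by the paper DDVP controls were last fed several hours after the 24 h exposure began. In the deposited values the means of control set 1 and of the 24 h unfed pools were equal to within 1e-04 in every probe. The part of the unlike baselines in the differences was not tested. The DDVP effect exceeded the effect of withholding food by 1.62 (95% interval 1.19 to 2.04, adjusted p = 3.97e-08) for atf4a on the log2 scale, and by 0.96 (0.48 to 1.45, adjusted p = 0.000447) and 0.64 (0.12 to 1.16, adjusted p = 0.0198) for the bright and dim atf4b probes. For creb1a it exceeded it by 0.81 (0.42 to 1.21, adjusted p = 0.000291) on the bright and 1.19 (0.81 to 1.58, adjusted p = 1.52e-06) on the dim probe. The dim creb1a probe had not reached the signal-to-noise limit on all arrays of any nutrient restriction group. At the threshold of 0.001, 4 of the 5 probes were called, all upwards, beside 77.4% of all probes in either direction and 44.3% upwards. The arrays of the arms were read on different scanners. Whether the same change in mRNA has the same size on both was not tested.

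With either control set alone the values could not move, since both sets have equal means. The bright atf4b probe, at 0.96, then missed the threshold (adjusted p = 0.00206 and 0.00106). The bright creb1a probe missed it with control set 1 alone (adjusted p = 0.0011). The bright atf4b probe also missed it without high replicate 2, high replicate 3, fed replicate 3, fed replicate 4, unfed 50 h replicate 2 or unfed 50 h replicate 3 (0.79 to 0.94, adjusted p up to 0.00215). The bright creb1a probe missed it without high replicate 3 or unfed 50 h replicate 3 (0.70 and 0.75). The difference for atf4a was called under each of these settings.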

How the data were processed

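Liver RNA was hybridised to single-colour Agilent zebrafish arrays. The deposited table holds log2 values that the authors made by quantile normalising the median spot signal, removing a batch effect and keeping probes that differed on these arrays. The deposited intensity values of the 12 nutrient restriction arrays came from Agilent Feature Extraction 10.7.1.1. The members and gene lists were chosen with earlier results of these data known.

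For DDVP, limma 3.58.1 (R 4.3.3) was fitted to the deposited log2 values of 20 arrays with both control sets pooled. For nutrient restriction, the median intensity was quantile normalised and log2 transformed, outlier spots were dropped, spots of a probe were averaged, and a probe was tested when its signal exceeded the noise 3-fold on every array of some group, at an adjusted p of 0.001 with no fold filter. The difference between arms used all 32 arrays of the deposited table. Levels were not compared between arms. ATF4 copies were compared by an exact permutation test. The number of arrays limits precision. The fits were tested on simulated data.

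Probes were named through RefSeq accessions, which gave a symbol for 15163 of 43603 probes, and 3295 of the 5481 in the deposited table. Named were every probe of the 3 genes, from each list up to 4 genes with the largest called change at high DDVP, and the 5 genes most correlated with each bright probe. Alternatives were another control set, array centring, a mean-dependent variance, other signal columns and filters, slide and replicate blocks, and leaving out each array.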

Additional observations from a re-analysis of the deposited data

Results flagged for a closer look

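Of the 35 groups of values examined, 1 held a pool far from the others. Control set 1 replicate 1 had a level of 12.85 on the bright atf4b probe, where the other 7 control pools lay between 13.22 and 13.48, a gap of 0.59 of the whole range. The criterion picks out about 1 in 20 groups by chance. Without this pool the bright atf4b probe kept its call at high DDVP and stayed below 1.8-fold at low and mid DDVP.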

How the results depend on the processing

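Over all alternatives for the single probes, 683 values kept direction and side of the threshold, 15 lost a call, 6 gained one and 5 changed sign. The alternatives with 1 control set alone could not move a fitted change, only its standard error and p. With no fold filter the bright atf4b probe was called at low (0.61) and mid DDVP (0.79). Both creb1a probes were then called at mid DDVP (0.49 and 0.48), and 2612 probes in all at low DDVP, against 1683 with the filter. Over the other alternatives the adjusted p (limma) of the bright atf4b probe at low DDVP rose as far as 0.00853. At mid DDVP that of the bright and dim creb1a probes rose as far as 0.00443 and 0.00647. With either control set alone the difference between the arms lost its call for the bright atf4b probe (0.96), and with control set 1 alone for the bright creb1a probe (0.81). With a normexp background correction, chosen after seeing the data because the files hold no mean signal, the bright creb1a probe was at -0.012 in 24 h unfed fish. The number of probes called at 24 h without food, 1, became 0 with slide as a block, 2 with either form of the processed signal and 31 on the deposited values. At 50 h it was 3, and became 1 with slide as a block, 9 with the processed signal less its 75th percentile, 56 on the deposited values and 1 without the filter on dim probes. Between 50 h and 24 h it was 0, and 1 on the deposited values. The causes were not tested.

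For DDVP, samples with the same replicate number had correlations of deviations of -0.28 to 0.33. Of these pairs 11 of 40 were over 0.1, beside 24 of 120 pairs with unlike numbers. For nutrient restriction the correlations were -0.30 to 0.37, with 4 of 12 pairs over 0.1, beside 17 of 36 with unlike numbers. The main fits did not use the numbers as pairs. With the replicate number as a block the count at 24 h was 0, and no call of a probe of the 3 genes changed.

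Leaving out single arrays moved the bright atf4b probe between 0.62 and 0.90 at mid DDVP, between 0.62 and 0.90 at high against mid DDVP and between 0.79 and 1.09 in the difference between arms. The dim atf4b probe ran from -0.0651 to 0.24 at mid against low DDVP. The bright creb1a probe ran from 0.85 to 1.02 at high DDVP, from -0.0567 to 0.15 at 24 h, from -0.0209 to 0.19 at 50 h against 24 h and from 0.70 to 0.91 in the difference between arms, and the dim creb1a probe from 0.74 to 0.91 at high DDVP. The counts of called probes ran from 37 to 102 at high against mid DDVP, where it was 37 without mid replicate 3, 40 without mid replicate 4 or high replicate 3 and 41 without high replicate 2, from 0 to 3 at 24 h and from 1 to 18 at 50 h, where the highest came without unfed 50 h replicate 2. The change of atf4a minus atf4b ran from -0.14 to 0.0517 at 24 h and from -0.22 to 0.11 at 50 h.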
